A study of Mus musculus with 8 samples.

Results

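Lncenc1, Cyp2c55, Fam3c and Taf9b are 4 genes whose transcripts were nearly lost from a T cell precursor line that lacked TCF-1. They were selected on that loss, so their levels in the knockout describe the choice and carry no test. They are 4 of the 31053 genes counted in Scid.adh cells and of the 53465 genes counted in NIH-3T3 cells. All 4 passed the filter on low counts in Scid.adh, where 11941 genes were tested, and 3 of them passed it in NIH-3T3, where 18185 genes were tested. In Scid.adh the 4 members passed the filter through the control group, where they are high, and would not have passed it on the knockout libraries alone.

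The study measured RNA in mouse cells that gained or lost TCF-1, the HMG-box DNA-binding protein that the gene Tcf7 encodes, within work on how this factor rearranges the folding of the genome. Scid.adh, a thymic lymphoma line, stands for DN3 thymocytes, and its groups were wild-type cells with an empty vector, called control here, and Tcf7-/- cells, called knockout. NIH-3T3, an embryonic fibroblast line, was either untreated wild type ("normal") or had TCF-1 induced. Each of the 4 groups held 2 libraries. The names in the file headers give 72 hours and Cas9 for all 3T3 libraries and doxycycline for the induced libraries alone, so that doxycycline and TCF-1 cannot be told apart in this comparison. Separate cultures or clones are not named in the labels, so that p-values reflect library-to-library spread, perhaps of technical origin alone.

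Totals over genes ran from 7740198 to 10392402 counts in Scid.adh and from 13850213 to 17523677 in 3T3. Levels are given as CPM, counts scaled to the depth of each library with edgeR's TMM factors. Tcf7 itself was at 1318 and 1325 CPM in control cells and at 646 and 624 CPM in the knockout, and gene counts cannot tell whether the remaining transcripts encode the protein. In 3T3 it was at 14.5 and 14.6 CPM in normal cells and at 946 and 972 CPM after induction. All 8 T lineage markers checked were present in Scid.adh, with summed levels of 4364 to 4419 CPM in control cells and 3678 to 3744 CPM in the knockout. All 6 fibroblast markers were present in 3T3, where Cd3e alone of the T lineage markers averaged at least 1 CPM.

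These 4 genes are not known as parts of a common pathway. Lncenc1 is a long noncoding RNA known from naive embryonic stem cells, where it has been tied to the expression of glycolysis genes through the RNA-binding proteins PTBP1 and HNRNPK. Cyp2c55 is a cytochrome P450 that oxidises arachidonic acid and is best known from intestine and liver. Fam3c encodes ILEI, a secreted protein known for its part in the epithelial to mesenchymal transition and linked to signalling through the LIF receptor and STAT3. Taf9b is a close relative of TAF9, a histone-fold subunit shared by the general transcription factor TFIID and the coactivator SAGA. TCF-1 binds DNA through its HMG box at sites that hold the core CTTTGAA or CTTTGAT, bends it, and works during T lineage specification and commitment in the thymus.

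The start regions of Lncenc1 and Taf9b are printed here because they alone among the members hold this core within the promoter windows searched. Windows of 300 bases, 250 before and 50 after a start site, were taken from RefSeq for GRCm38.p6, in which all 4 genes had at least 1 window and 5 windows were found in all. Both strands were read for CTTTGAA and CTTTGAT. The 250 bases before each start are shown in the direction of transcription, from chr13:97434720-97434969 on the plus strand and chrX:106221159-106221408 on the minus strand, with matches in capitals.
Lncenc1: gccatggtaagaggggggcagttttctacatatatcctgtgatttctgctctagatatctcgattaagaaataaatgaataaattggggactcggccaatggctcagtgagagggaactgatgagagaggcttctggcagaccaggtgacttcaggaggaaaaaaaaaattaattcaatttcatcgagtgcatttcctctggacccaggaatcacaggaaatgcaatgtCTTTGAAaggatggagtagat
Taf9b: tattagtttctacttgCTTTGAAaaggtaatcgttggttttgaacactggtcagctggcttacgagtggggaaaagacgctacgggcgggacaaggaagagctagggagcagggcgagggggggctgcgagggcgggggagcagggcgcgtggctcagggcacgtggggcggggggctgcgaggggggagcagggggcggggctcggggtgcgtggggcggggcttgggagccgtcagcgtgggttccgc
In Lncenc1 the match CTTTGAA began 21 bases before the start (position -21), and in Taf9b it began at position -234. The same Taf9b window held a further CTTTGAT on the opposite strand from position 7, with the start as position 1, read as ATCAAAG on the strand of the gene in gcaagagcATCAAAGttcaagat. The windows of Cyp2c55 and Fam3c and the second window of Taf9b held no match. Of all 32851 promoter windows, 2842 (8.65%) held at least 1 match, and the shorter CTTTG, which lies inside both cores, was in 53.9% of them and in windows of the same 2 members. A match describes the letters of a window and no binding was measured in these data.

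Lncenc1 (ENSMUSG00000078952) is a lincRNA gene at chr13:97434970-97497007 on the plus strand of GRCm38, with 3301 exonic bases in 6 exon blocks. It had 924 and 790 counts in control cells and 11 and 6 counts in the knockout. These are 93.1 and 84.4 CPM against 1.34 and 0.712 CPM, so both knockout libraries lay far below both control libraries. The mean went from 88.7 ± 6.18 to 1.02 ± 0.442 CPM (SD, n = 2), a level 87.0-fold lower. What was left was 1.15% of the control level, with a 95% interval of 0.668 to 1.85%. That interval comes from counts summed over the libraries of each group, so it covers counting error only. No molecular identifiers are named for these libraries, so repeated reads of the same molecule cannot be told apart. On the log2 scale the difference was -6.42 (SE 0.19). In these bulk libraries, fewer cells with the transcript and less of it per cell cannot be told apart. An antisense pseudogene lies within its span but shares 0 exonic bases with it.

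Cyp2c55 (ENSMUSG00000025002) lies at chr19:39007019-39042693 on the plus strand, with 1995 exonic bases in 9 blocks, of which 64 bases are shared with the miRNA gene Gm23800 on the other strand. Its level was 34.9 and 31.8 CPM in control cells and 0.486 and 0.949 CPM in the knockout, from 346, 298, 4 and 8 counts. No knockout library came near a control library. The mean of 33.3 ± 2.15 CPM stood against 0.718 ± 0.327 CPM (SD, n = 2), 2.16% of the control with a counting interval of 1.11 to 3.80%. The difference on the log2 scale was -5.51 (SE 0.26).

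Fam3c (ENSMUSG00000029672) lies at chr6:22306520-22356243 on the minus strand, with 3713 exonic bases in 14 blocks. It was at 18.4 and 20.1 CPM in control cells and at 1.09 and 0.356 CPM in the knockout, from 183, 188, 9 and 3 counts. The groups did not overlap, while the knockout libraries differed from each other by a larger ratio than those of the other members. The mean was 19.3 ± 1.16 CPM against 0.725 ± 0.522 CPM (SD, n = 2), 3.75% of the control with a counting interval of 1.92 to 6.63%. The log2 difference was -4.71 (SE 0.32).

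Taf9b (ENSMUSG00000047242) lies at chrX:106206883-106221158 on the minus strand, with 3158 exonic bases in 9 blocks. Its 132 and 123 counts in control cells gave 13.3 and 13.1 CPM, and its 5 and 4 counts in the knockout gave 0.608 and 0.475 CPM. The libraries of each group were close together and the groups were far apart. The mean was 13.2 ± 0.117 CPM against 0.541 ± 0.0942 CPM (SD, n = 2), 4.09% of the control with a counting interval of 1.85 to 7.89%. The log2 difference was -4.58 (SE 0.33).

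**Figure D1:**
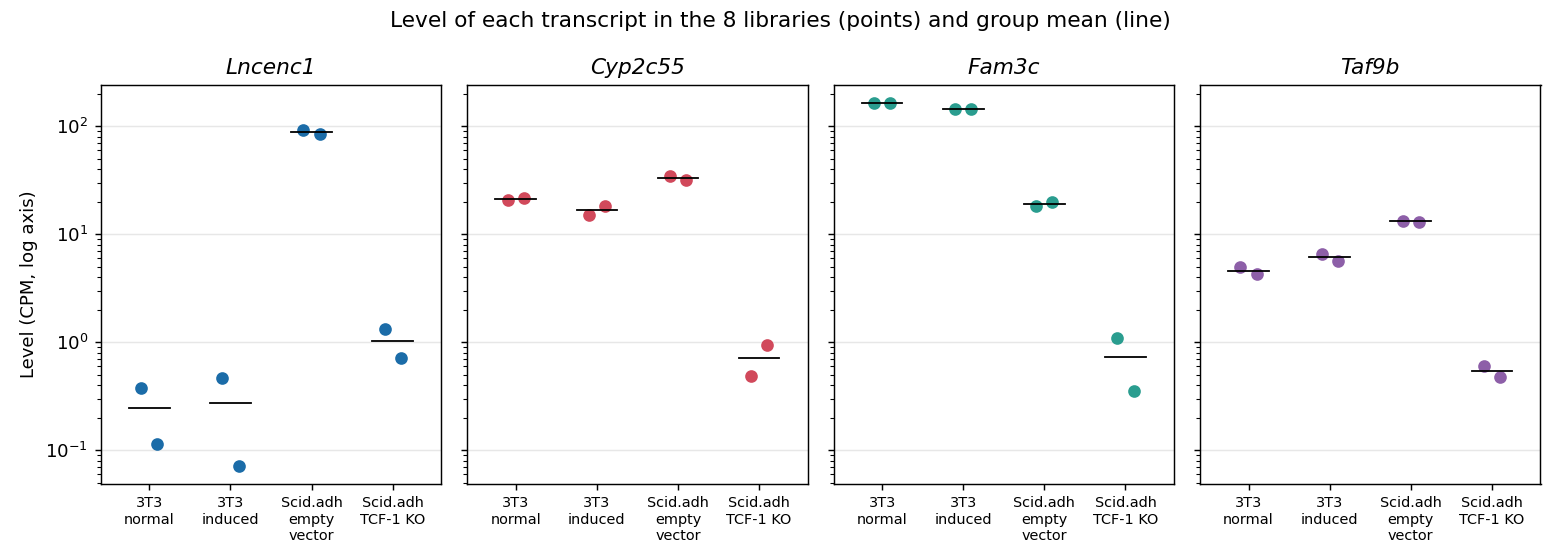
Level of each gene in CPM (log axis) in the 8 libraries, with 1 point per library and a line at the mean of each group. In Scid.adh all 4 genes are far lower in the knockout, while in 3T3 Lncenc1 is near the bottom of the axis in both groups and Fam3c is above 100 CPM in both.

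Per kilobase of exon, which allows levels of different genes to be compared, the order in control cells was Lncenc1 at 26.9 ± 1.87, Cyp2c55 at 16.7 ± 1.08, Fam3c at 5.19 ± 0.312 and Taf9b at 4.18 ± 0.0371 CPM per kb (SD, n = 2). Neighbours in this order were further apart than their SDs. In the knockout all 4 lay between 0.171 and 0.360 CPM per kb, and no order could be read from so few counts. Lncenc1 and Cyp2c55 were therefore the more abundant members before the loss. In the knockout, the counting interval of the share left was lower for Lncenc1 than for Fam3c and overlapped that of Cyp2c55. The interval of Lncenc1 ended where that of Taf9b began, at 1.85% after rounding for both. These intervals leave out the spread between libraries and come from the values used for the choice, so no order of loss was tested.

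Among the 11658 tested genes that averaged 1 CPM or more, Lncenc1 had the lowest log2 difference, and Cyp2c55, Fam3c and Taf9b stood at places 3, 7 and 8. Between Lncenc1 and Cyp2c55 stood Ifitm2, an interferon-inducible membrane protein, at -6.10. Next after Cyp2c55 came Ifi211, another interferon-inducible gene, at -5.14. Just before Fam3c stood Pdgfrb, a growth factor receptor, at -4.90. The gene just after Taf9b was Maml2, a coactivator of Notch signalling, at -4.27, so the value changes little at the edge of the chosen group.

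**Figure D2:**
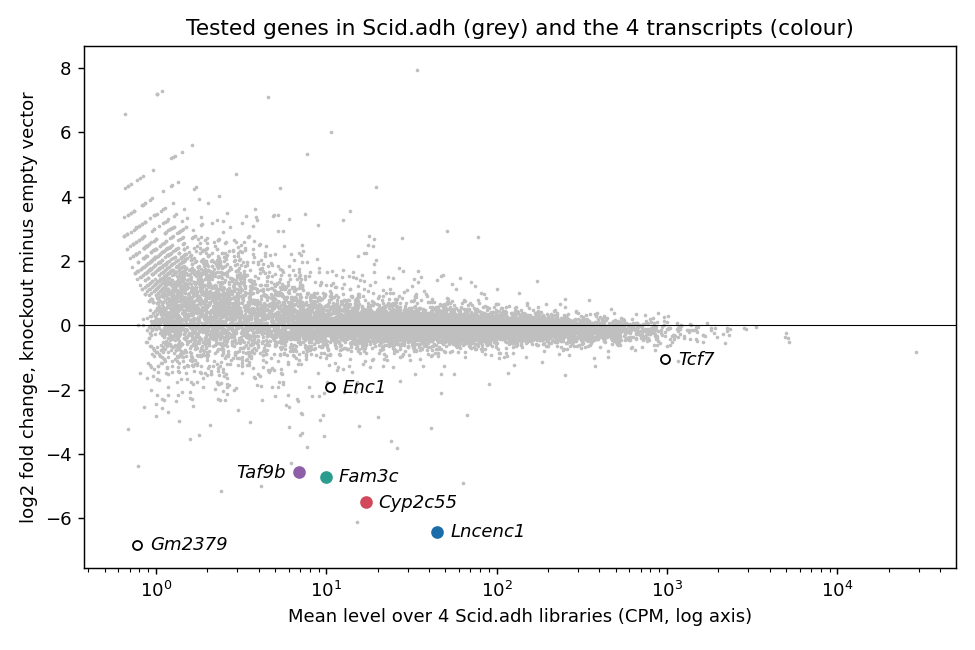
Log2 fold change (knockout minus empty vector) against mean level in CPM (log axis) for the tested genes of Scid.adh, in grey. The 4 members, in colour, lie at the lower edge at medium levels, from -4.58 for Taf9b to -6.42 for Lncenc1, and Tcf7, Enc1 and Gm2379 are marked with open circles.

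Across all tested genes of Scid.adh, 1899 genes (15.9%) fell and 1861 genes (15.6%) rose in the knockout at an adjusted p under 0.05 (edgeR, quasi-likelihood F-test, Benjamini-Hochberg). With upper-quartile scaling the split was 1215 fallen and 2455 risen genes. This is the background for the genes next to the members and for the relatives described below, which the choice of the members did not use. The genes around a member were those whose start site lay within 500 kb of its own. Of 14 such tested genes over the 4 loci, 3 fell and 2 rose.

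Among these neighbours the largest changes were next to Lncenc1. Enc1, a kelch-family actin-binding protein that starts 193.9 kb before Lncenc1 on the same strand, was at 16.5 and 16.9 CPM in control cells and at 4.38 and 4.39 CPM in the knockout. It fell by 1.93 on the log2 scale (SE 0.20, edgeR adjusted p = 2.71e-05), and the groups did not overlap. Enc1 also passed with each other scaling and filter, with the replicate block, with DESeq2 and with each library left out. On the other side, the lincRNA Gm2379 starts 76.2 kb after the start of Lncenc1 on the same strand. It was at 1.61 and 1.49 CPM in control cells and had 0 counts in both knockout libraries (edgeR adjusted p = 0.000648). Its level was at least 8.63-fold lower when the floor is set at 3 counts over the group. Gm2379 passed the filter on low counts through the control group alone, and its call is part of the count of fallen neighbours. Gm2379 was not tested under a minimum mean of 1 CPM or without empty vector replicate 1, and passed in the other alternatives. Both genes lie outside the annotated span of Lncenc1, which ends at chr13:97497007, while Gm2379 begins at chr13:97511204. Whether the counts of Gm2379 come from a separate transcript was not tested. Its fitted log2 difference of -6.82, which depends on the prior count, lay below the -6.42 of Lncenc1, and Gm2379 averaged under 1 CPM. Of the genes tested at greater distances on the side of Enc1, 3 did not pass and had log2 differences between -0.29 and 0.15.

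Around Cyp2c55 neither of the 2 tested genes passed. Hells, the lymphoid-specific helicase that starts 76.1 kb before it, had a log2 difference of 0.16 (edgeR adjusted p = 0.0642), and Noc3l, a ribosome assembly factor, one of -0.18 (edgeR adjusted p = 0.115). Under other settings Hells passed with upper-quartile scaling and without either knockout library, and Noc3l passed without knockout replicate 2. Around Fam3c the single tested gene was Ing3, a subunit of a histone acetyltransferase complex 406.7 kb away, with a log2 difference of -0.06 (edgeR adjusted p = 0.716) that changed sign with upper-quartile scaling. These differences were small beside the -5.51 of Cyp2c55 and the -4.71 of Fam3c, which were selected for their size.

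Around Taf9b, small changes were seen in both directions. Pgk1, the glycolytic phosphoglycerate kinase that is transcribed towards Taf9b and starts 34.1 kb from its start, rose by 0.32 (SE 0.07, edgeR adjusted p = 0.00341), from 131 and 136 to 164 and 169 CPM. Cox7b, a subunit of cytochrome c oxidase, fell by 0.29 (SE 0.07, edgeR adjusted p = 0.00593), from 164 and 158 to 133 and 131 CPM. Both calls were lost without empty vector replicate 1, where Pgk1 had an edgeR adjusted p of 0.0993 and Cox7b one of 0.0979. The other 3 tested genes did not pass and had log2 differences between -0.05 and 0.16. On the far side the nearest tested gene, P2ry10, a lysophospholipid receptor beyond 500 kb, rose by 0.60 (SE 0.09, edgeR adjusted p = 0.000518).

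**Figure D3:**
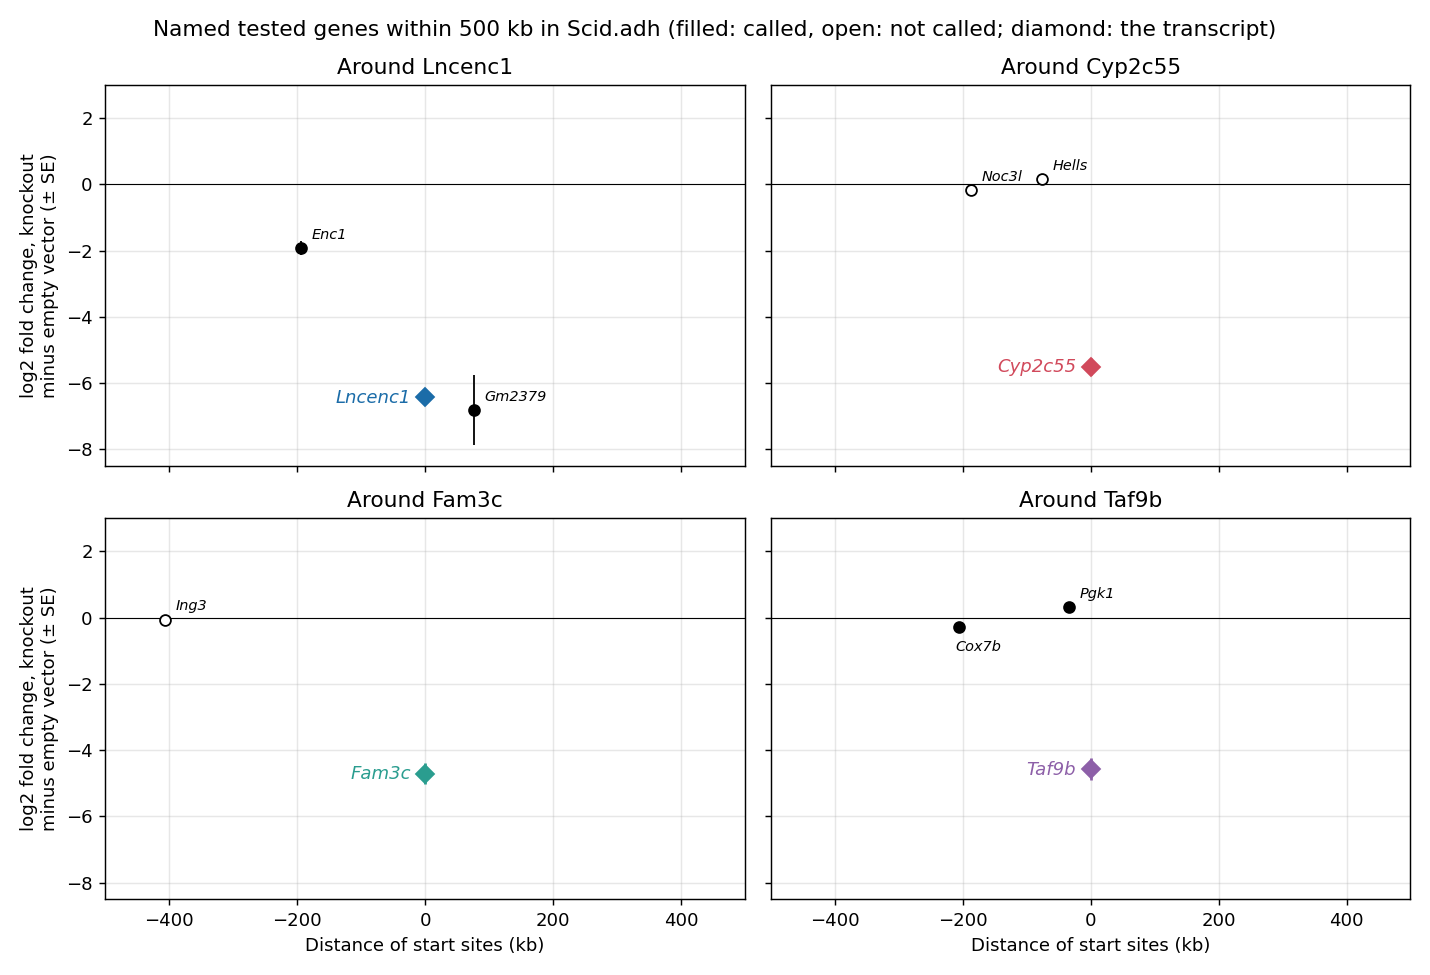
Log2 fold change (knockout minus empty vector, ± SE) of the neighbours named in the text against the distance of their start site from that of each member in kb, with filled points for genes past the threshold. Enc1 at -1.93 and Gm2379 lie low beside Lncenc1, while those near the other 3 members lie close to 0. Gm2379 had 0 counts in the knockout and is drawn at a fitted value that depends on the prior count.

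The comparison of induced with normal 3T3 cells was not used to choose the members and asks whether gain of TCF-1 moves the same transcripts. Lncenc1 was hardly detected there, with 6 and 2 counts in normal cells and 8 and 1 in induced cells. At 0.375 and 0.115 CPM against 0.471 and 0.0721 CPM the groups overlapped, and Lncenc1 did not pass the filter. The ratio of induced to normal was 1.22 with a 95% counting interval of 0.417 to 3.63, so a change of Lncenc1 was not detectable at this depth. Gm2379, its neighbour, had 1 count in the 4 libraries of 3T3. Enc1, in contrast, was at 117 and 112 CPM in normal and 115 and 109 CPM in induced cells, with a log2 difference of -0.03 (edgeR adjusted p = 0.663).

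Cyp2c55 was at 20.6 and 21.8 CPM in normal cells and at 15.0 and 18.4 CPM in induced cells. Both induced libraries were below both normal libraries, although they also differed from each other. The mean went from 21.2 ± 0.837 to 16.7 ± 2.38 CPM (SD, n = 2), and Cyp2c55 fell by 0.36 on the log2 scale (SE 0.10, edgeR adjusted p = 0.00244). This call for Cyp2c55 rested on induced replicate 1, without which the difference was -0.21 (edgeR adjusted p = 0.147). DESeq2 gave an adjusted p of 0.0767.

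Fam3c was far more abundant in 3T3 than in Scid.adh, with 165 and 163 CPM in normal cells and 146 and 145 CPM in induced cells. The libraries of each group were nearly equal and the groups did not overlap. The mean went from 164 ± 1.03 to 146 ± 0.534 CPM (SD, n = 2), and Fam3c fell by 0.17 on the log2 scale (SE 0.04, edgeR adjusted p = 0.00102). The call was lost without normal replicate 1 (log2 difference -0.16, edgeR adjusted p = 0.0592).

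Taf9b was at 4.94 and 4.31 CPM in normal cells and at 6.54 and 5.69 CPM in induced cells. The groups did not overlap, but the gap between them was similar in size to the spread within each. The mean went from 4.63 ± 0.448 to 6.12 ± 0.596 CPM (SD, n = 2), and Taf9b rose by 0.42 on the log2 scale (SE 0.16, edgeR adjusted p = 0.0403). Taf9b did not pass with DESeq2 (adjusted p = 0.315), without a filter on low counts (0.0674), without normal replicate 2 (0.307) and without induced replicate 1 (0.272).

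Of the 3 members tested in 3T3, then, 2 fell and 1 rose, beside 3332 fallen genes (18.3%) and 3361 risen genes (18.5%) among all those tested. None of the 3 differences came near the size of those in Scid.adh, on which the members were selected. Of the 3, Taf9b was the member higher in the group with more TCF-1 in both lines. Its rise in 3T3 was not called with DESeq2 (adjusted p = 0.315) or without a filter on low counts (edgeR adjusted p = 0.0674). Cyp2c55 and Fam3c were higher with TCF-1 in Scid.adh and lower with it in 3T3, where TCF-1 came with doxycycline.

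Around the members in 3T3, 24 genes within 500 kb were tested, of which 10 fell and 1 rose, where 18.3% and 18.5% of all tested genes did. Next to Fam3c, Cped1 fell by 0.87 from 323 to 177 CPM and Gm26719, a lincRNA that overlaps Cped1 on the other strand, by 0.86, beside the 0.17 of Fam3c itself. Since the strand setting is unknown, reads of Cped1 and Gm26719 cannot be told apart. Next to Cyp2c55, Tbc1d12 fell by 0.41 and Hells had a log2 difference of -0.02 that did not pass. Next to Taf9b, Pgk1 fell by 0.31 (edgeR adjusted p = 5.26e-08) and Cox7b by 0.21, while Taf9b rose. The call for Cox7b was lost with DESeq2 (adjusted p = 0.0650) and without normal replicate 1. Pgk1 had thus risen in the knockout and fallen on induction, and a test of that contrast was not run.

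**Figure D4:**
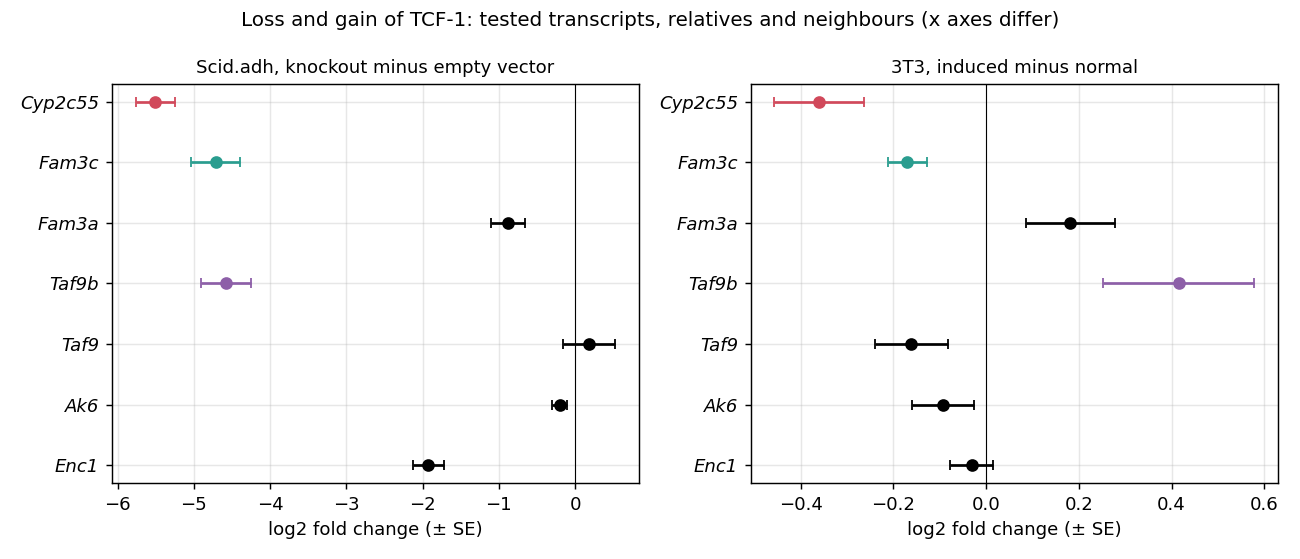
Log2 fold change (± SE) of the 3 members tested in both lines and of Fam3a, Taf9, Ak6 and Enc1, on axes of different range, for the knockout minus empty vector (left) and for induced minus normal 3T3 (right). Cyp2c55, Fam3c and Taf9b lie between -5.51 and -4.58 in Scid.adh and between -0.36 and 0.42 in 3T3.

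The order of the groups by level differed between members, and since gene tables differ between the lines it is a description. Lncenc1 was highest in control cells, followed by the knockout at 1.02 CPM and by both 3T3 groups, which overlapped. Cyp2c55 was highest in control cells, followed by normal 3T3, induced 3T3 and the knockout. Fam3c was highest in normal 3T3, followed by induced 3T3, Scid.adh control cells and the knockout. Taf9b was highest in control cells, followed by induced 3T3, normal 3T3 and the knockout. Fam3c thus had 44.2 ± 0.278 CPM per kb in normal fibroblasts against 5.19 ± 0.312 in control cells (SD, n = 2), and in no library of 3T3 were Cyp2c55, Fam3c and Taf9b as low as in the knockout libraries.

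Traces of fibroblast transcripts were present in Scid.adh and moved with the knockout. Col1a1, Col1a2, Col3a1, Pdgfra and Fn1 averaged between 0 and 0.670 CPM in control cells and between 0.359 and 2.34 CPM in the knockout, with Col3a1 at 0 counts in the first group. Pdgfrb, the remaining marker of that list, was at 122 CPM in control cells and 4.09 CPM in the knockout. The summed levels of the 6 were 121.7 to 126.7 CPM in control cells, 11.04 to 11.67 CPM in the knockout and 23274 to 25835 CPM in 3T3. Fam3c and Cyp2c55 are expressed by 3T3, and the part of such traces in their few counts in the knockout was not tested. Summed markers of naive pluripotent cells, in which Lncenc1 is known, were at 0.806 to 0.854 CPM in control cells and 2.19 to 2.73 CPM in the knockout, and Nanog was at 0 in control cells. Those of epithelium, intestine and liver, where Cyp2c55 is known, were at 5.24 to 5.45 CPM and 3.92 to 6.32 CPM, with Alb and Apoa1 at 0 in control cells.

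Close relatives of the members had smaller changes in the knockout. Since the members were selected for deep falls, this difference in size was largely set by the choice. Fam3a, of the same family of secreted proteins as Fam3c, was at 8.97 CPM in both control libraries and at 4.99 and 4.75 CPM in the knockout. It fell by 0.88 (SE 0.23, edgeR adjusted p = 0.0105), a call for Fam3a that DESeq2 did not make (adjusted p = 0.0700), and in 3T3 it had a log2 difference of 0.18 (edgeR adjusted p = 0.141). Fam3b had at most 2 counts in any library. Taf9, the gene most like Taf9b, was at 2.74 ± 0.547 CPM in control cells and 3.12 ± 0.456 CPM in the knockout (SD, n = 2), with a log2 difference of 0.19 (edgeR adjusted p = 0.712). That value is uncertain, because 73.8% of the exonic bases of Taf9 are shared with Ak6 on the same strand, and Ak6 itself had a log2 difference of -0.20 (edgeR adjusted p = 0.126). In 3T3 Taf9 had a log2 difference of -0.16 (edgeR adjusted p = 0.107) and Ak6 one of -0.09 (edgeR adjusted p = 0.298).

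Of the Cyp2c family, 14 of the 15 genes listed beside Cyp2c55 were in the tables. In Scid.adh 9 of them had any count and in 3T3 4 did, and none passed the filter in either line. Cyp2c55 was therefore the member of the listed family with a measurable level in these cells. Of 8 partners of P450 enzymes and genes of arachidonate epoxides, 3 were tested in Scid.adh, where 15.9% of all tested genes fell. Cyb5r3, a cytochrome b5 reductase, fell by 0.81 (SE 0.11, edgeR adjusted p = 0.000251), and the other 2 did not pass. In 3T3 all 8 were tested, of which 2 rose and 5 fell, where 18.5% and 18.3% of all tested genes did. Among them, Cyb5a rose by 0.91 and Ephx2, the soluble epoxide hydrolase, fell by 0.53. With DESeq2, and without normal replicate 2, 3 of the 8 fell, and the call for Ephx2 was lost in both (adjusted p = 0.0792 with DESeq2, edgeR adjusted p = 0.0510 without that library).

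Of 15 TFIID subunits tested in Scid.adh, 1 rose and 3 fell, where 15.6% and 15.9% of all tested genes did, with a median log2 difference of -0.08 against -0.004 for all tested genes. Taf5, a scaffold subunit, rose by 0.54, while Taf4b and Taf11 both fell by 0.33 and Taf3 by 0.23. None of the 3 falls was called with DESeq2, with upper-quartile scaling or without either empty vector library. Of 16 SAGA subunits, Kat2a, the acetyltransferase, fell by 0.36 and Taf5l by 0.26, and 14 did not pass. The call for Taf5l was lost with DESeq2 (adjusted p = 0.0766), with upper-quartile scaling and without either empty vector library. In 3T3, where 18.5% of all tested genes rose and 18.3% fell, 2 TFIID subunits rose and 3 fell of 15. SAGA subunits there had 5 rises and 3 falls of 16. With DESeq2 the TFIID counts became 0 and 1 and the SAGA rises 2. Without normal replicate 1 they became 0 and 1 for TFIID and 2 and 1 for SAGA. Without normal replicate 2 TFIID had 1 rise and 1 fall and SAGA 3 rises, and without induced replicate 1 SAGA also had 3 rises.

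Among 7 genes tied to ILEI, the product of Fam3c, 4 were tested in Scid.adh and 3 of them fell. Of all genes tested in Scid.adh, 15.9% fell and 15.6% rose. Il6st, the receptor chain gp130, fell by 0.41, Stat3 by 0.33 and Pcbp1, an RNA-binding repressor of ILEI translation, by 0.26. The number past the threshold was 2 without empty vector replicate 1 and 1 without empty vector replicate 2. All 7 were tested in 3T3, where Il6st rose by 1.15, the LIF receptor gene Lifr by 0.67 and Stat3 by 0.56. Of genes of the epithelial to mesenchymal transition, 3 of 9 were tested in Scid.adh and Zeb2 rose by 1.98, from 0.937 to 3.71 CPM. In 3T3, 8 were tested, of which Zeb2 rose by 0.61 and 5 fell, with Snai2 down by 0.87 and Twist1 by 0.70. Of all genes tested in 3T3, 18.5% rose and 18.3% fell.

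Of 18 tested genes of glycolysis and protein partners of Lncenc1 in Scid.adh, 10 fell and 1 rose, with a median log2 difference of -0.23. Among all tested genes of Scid.adh, 15.9% fell and 15.6% rose, with a median of -0.004. A link of these changes to Lncenc1 was not tested. The hexokinases Hk1 and Hk2 fell by 0.72 and 0.45, the phosphofructokinase Pfkp by 0.72 and the RNA-binding protein gene Ptbp1 by 0.24, and the gene that rose was Pgk1, the neighbour of Taf9b. With upper-quartile scaling, and without empty vector replicate 1, 6 fell, and Ptbp1 did not pass under either or without empty vector replicate 2. In 3T3, 16 of 18 fell, with a median of -0.30 and Hk2 down by 1.96. Among all tested genes of 3T3, 18.3% fell and 18.5% rose. Of 13 naive pluripotency genes, 3 were tested in Scid.adh, and Klf2 and Klf5 rose by 2.11 and 1.57 from 0.519 CPM each. Neither was called with DESeq2, and Klf5 was not called without any single library. In 3T3, 7 were tested, of which 2 rose and 2 fell.

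Profiles over the 8 libraries were compared by the Euclidean distance between log2(CPM + 1) values, each centred on its own mean, over 11916 genes. Smaller distances are more alike. The closest named genes to Lncenc1 were Mzb1 (distance 2.81), Fcgr2b (2.83) and Bst1 (3.49), which had means of 27.9, 17.8 and 14.3 CPM in control cells and 3.17, 1.63 and 1.03 CPM in the knockout. Fam3c was closest to Maml2 (1.08), Ifi204 (1.27) and Pdgfrb (1.64), all of which had higher levels in 3T3 than in Scid.adh. Taf9b was closest to Sytl2 (1.22), Ksr1 (1.35) and Gbp7 (1.92). Cyp2c55 was closest to Hmgn1, a nucleosome-binding protein gene (1.75), then to Taf9b itself (1.94) and to Sytl2 (2.41). The knockout fall on which the members were selected enters every distance, so the closeness of Cyp2c55 and Taf9b was partly set by the choice. The lines were also scaled apart and counted on different gene tables. Hmgn1 went from 74.3 to 8.04 CPM in the knockout and was at 108 CPM in normal and 120 CPM in induced 3T3.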

How the data were processed

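RNA of 8 libraries was measured by paired-end RNA-seq from a stranded low-input total RNA kit, per the labels' protocols. The authors deposited raw counts per gene on GRCm38 (mm10), and STAR 2.5.0a and HTSeq 0.6.1 are named in the submitters' processing notes. Whether the counting used strand is not given in the sources used here. In the Scid.adh files, reads outside genes (21.3 to 25.8%) and ambiguous reads (2.20 to 2.44%) were left out. Names, positions and exons came from GENCODE M21, in which 105 genes of the 3T3 tables and 42 of the Scid.adh tables were not found.

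Each line was fitted alone with edgeR 4.0.16 in R 4.3.3 (filterByExpr, TMM, robust quasi-likelihood F-test, Benjamini-Hochberg adjustment over all tested genes, threshold 0.05). The biological coefficient of variation was 5.94% in Scid.adh and 2.41% in 3T3. The SE of a log2 difference is its absolute value divided by the square root of the F statistic. For the members in Scid.adh this SE is a description, since they were selected on that contrast. On data simulated for each line with 50 genes per fold change, changes of 1.25-, 1.5-, 2- and 4-fold were found in 34%, 62%, 82% and 94% of cases in Scid.adh (20 false calls among 11741 unchanged genes) and in 38%, 74%, 78% and 94% in 3T3 (9 among 17985). The simulated data held far fewer changed genes than were called in the real fits, so these shares and false calls may not carry over. Intervals of ratios are exact binomial intervals from summed counts. As alternatives, scaling was changed to upper-quartile factors or those of DESeq2, the test to DESeq2 1.42.0, the filter to none or to a minimum mean of 1 CPM, the windows to 250 and 1000 kb and the motif to its shorter form, a block was added for replicate number, and libraries were left out in turn. Plots used matplotlib 3.10.9, and tables used Python 3.11.15, SciPy 1.17.1, NumPy 2.4.6 and pandas 2.3.3.

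The members and all lists were chosen with earlier results of these data known. The rule for naming genes took Tcf7, the members, their families, up to 2 called genes per direction in each list (or the most abundant one), the nearest tested gene on each side of a member and up to 4 called genes within 500 kb, the 3 most alike named genes, and the genes next to each member in the order of differences. Other genes named (Noc3l, Ak6, Taf3, Pcbp1, Ptbp1 and Gm2379 in 3T3) were added after their values were seen. The result of 1 neighbouring gene is not reported here, and it is kept in the counts of neighbours.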

Additional observations from a re-analysis of the deposited data

Results flagged for a closer look

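Cyp2c55 and Fam3c were higher in the group with more TCF-1 in Scid.adh and lower in that group in 3T3, where TCF-1 came with doxycycline. For Cyp2c55 the mean with more TCF-1 minus the mean with less was 32.6 CPM in Scid.adh and -4.54 CPM in 3T3. For Fam3c it was 18.5 CPM in Scid.adh and -18.2 CPM in 3T3. On the log2 scale, knockout minus control was -5.51 for Cyp2c55 and -4.71 for Fam3c, and induced minus normal was -0.36 and -0.17. The 3T3 call for Cyp2c55 was not made with DESeq2 (adjusted p = 0.0767). The difference between the lines was not tested, and the Scid.adh values are those on which both genes were selected.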

How the results depend on the processing

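The lower levels of Lncenc1, Cyp2c55, Fam3c and Taf9b in the knockout kept their direction under all alternatives run, with log2 differences over the fits without 1 library of -6.94 to -6.03, -6.06 to -5.12, -5.71 to -4.12 and -4.77 to -4.41. In 3T3 such ranges were -0.50 to -0.21 for Cyp2c55, -0.18 to -0.16 for Fam3c and 0.31 to 0.51 for Taf9b. DESeq2 gave log2 differences of -0.35 for Cyp2c55 and 0.41 for Taf9b, neither past the threshold, and without a filter Taf9b was at 0.41 and also short of it. With a replicate block the 3T3 log2 differences were -0.35, -0.17 and 0.40 for Cyp2c55, Fam3c and Taf9b, and no call of a member changed. Libraries with the same number share only a number (correlations of deviations 0.00147 in Scid.adh and 0.0124 in 3T3), and the block gave 2028 risen and 2010 fallen genes in Scid.adh and 3633 and 3577 in 3T3. DESeq2 called 880 risen and 1080 fallen genes in Scid.adh and 1977 and 2035 in 3T3, and upper-quartile factors left 1215 fallen in Scid.adh. Without 1 library the counts ran from 1059 to 1911 risen and 1162 to 2321 fallen genes in Scid.adh, and from 2344 to 3391 and 2409 to 3418 in 3T3. The lowest counts in Scid.adh came without empty vector replicate 1. Within 1000 kb of the members 7 tested genes rose and 6 fell in Scid.adh, and 5 and 16 in 3T3, where 0 and 4 did so within 250 kb. The Ing3 difference in Scid.adh turned to 0.022 with upper-quartile factors and ran from -0.138 to 0.0049 without 1 library. Over such fits that of Taf9 ran from -0.013 to 0.40 in Scid.adh, and in 3T3 that of Enc1 from -0.068 to 0.0046 and that of Hells from -0.057 to 0.026. None of these 4 genes was past the threshold, and the cause of each change was not tested. In the knockout, 9 to 17 counts per member over both libraries limit how finely the remaining levels can be ranked.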
